A study of Xenopus laevis with 30 samples.

Results

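The genes described, *tcf7l2*, *tcf7* and *lef1*, belong to the TCF/LEF family, the DNA-binding proteins through which the canonical Wnt pathway reaches its target genes. Their RNA was measured by sequencing in the brain of *Xenopus laevis* tadpoles. Members were the rows of the count table whose name, without the ending .L or .S, is tcf7l2, tcf7 or lef1. The rule found 4 of 49109 rows, namely *tcf7l2.L*, *lef1.L*, *lef1* and *tcf7.S*. The endings mark the long and short chromosome copies of this allotetraploid frog. The row *lef1* carries no ending, and the current RefSeq annotation (assembly Xenopus_laevis_v10.1) lists *lef1.L* and *lef1.S* with lef1 as a synonym of both, so which copy it stands for was not given in the sources used here. All 4 members passed the filter on low counts in every comparison tested.

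The series holds 30 libraries from albino tadpoles staged by Nieuwkoop and Faber, and the labels name no treatment. Midbrain was sampled at stages 44, 46, 55 and 61 with 3 samples each, at stage 49 with 2 and at stage 66, the end of metamorphosis, with 1. Forebrain, hindbrain and spinal cord were sampled at stage 46 with 3 samples each and at stage 49 with 2 each. According to the methods, the forebrain piece was subcortical and the hindbrain piece included the rhombic lip, and how many animals made up a sample was not given in the sources used here.

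When a Wnt ligand binds its frizzled receptor, the cytoplasmic complex that destroys beta-catenin is held back, and beta-catenin enters the nucleus and binds TCF/LEF proteins on DNA. Without beta-catenin, the same proteins recruit Groucho/TLE co-repressors and keep targets off. In vertebrate brains *tcf7l2* is known as a gene of thalamus, habenula, pretectum and dorsal midbrain, where it is used in postmitotic neurons, and *lef1* as a gene of hypothalamus and midbrain. *tcf7* and *lef1* are best known in mammals from developing T cells.

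Library totals lay between 1762544 and 11016124 counts, and the stage 49 libraries were the shallowest, with a median of 2732115. A group of 10 libraries stood apart, the replicate 3 libraries of stage 46 forebrain, hindbrain and spinal cord and all stage 49 libraries but replicate 1 of midbrain. At equal depth they detected 42900 to 46638 genes, against 27679 to 32655 in the other 20. In these 10 libraries, rows with almost no counts in the 12 midbrain libraries of stages 44, 46, 55 and 61 had a median level of 0.449 to 0.909 CPM (counts per 1000000 library counts, TMM-normalized) and a 95th percentile of 2.02 to 4.85 CPM, against a median of 0 in the others. Summed spinal cord markers (13 rows, Hox genes) were 0 to 0.632 CPM in stage 46 midbrain and 242 to 433 CPM in stage 46 spinal cord. At stage 49 they were 4.53 to 35.9 CPM in midbrain and 123 to 127 CPM in spinal cord. Stage 49 forebrain held 50.9 to 51.4 CPM and stage 49 hindbrain 49.0 to 49.5 CPM. At stage 46 these sums averaged 11.02 ± 17.19 CPM in forebrain and 10.72 ± 12.46 CPM in hindbrain (SD, n = 3 each). Replicate 3 of both these groups stood apart. By this list the regions were less distinct in the stage 49 libraries, all of which but replicate 1 of midbrain stood apart. The parts of stage and of library group in this difference were not tested. Summed midbrain markers (11 rows) were 415 to 434 CPM in stage 46 midbrain and at most 309 CPM in any other region at that stage. Row by row, 4 passed as higher and 0 as lower over forebrain, 1 and 1 over hindbrain, and 4 and 1 over spinal cord, where 2.5%, 1.63% and 11.7% of all genes were called. The median log2 fold change of the rows over hindbrain was -0.126, beside -0.163 over all genes. The sum thus set midbrain apart from hindbrain, while the median row did not. The forebrain markers (16 rows) were also present in the stage 46 midbrain samples at 432 to 503 CPM, against 830 to 1604 CPM in forebrain samples. At stage 49 they were 160 to 212 CPM in midbrain and 441 to 514 CPM in forebrain. The hypothalamic genes named below as most like *tcf7l2.L* and *lef1.L* also had higher means in midbrain than in forebrain samples at stage 46. Whether the midbrain piece held diencephalon was not tested.

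Among the 4 members, *tcf7l2.L* was the one with the largest regional difference, and at stage 46 it was highest in the midbrain samples. Its levels were 211, 209.9 and 187 CPM in midbrain, against 6.76, 4.42 and 6.60 CPM in forebrain, 5.48, 5.94 and 10.6 CPM in hindbrain and 2.65, 4.15 and 2.92 CPM in spinal cord. The lowest midbrain sample lay far above the highest sample of any other region. The counts behind the low values were 13 to 48 reads per library. In bulk tissue, fewer cells of a type and less RNA per cell cannot be told apart. Midbrain exceeded forebrain 32.1-fold (log2 fold change 5.01 ± 0.33 SE, adjusted p = 3.36e-07, edgeR quasi-likelihood test with Benjamini-Hochberg adjustment), and by p-value this gene ranked 1 of the 34485 tested. It exceeded hindbrain 26-fold (4.70 ± 0.33, adjusted p = 1.02e-06, rank 2) and spinal cord 59.4-fold (5.89 ± 0.35, adjusted p = 2.4e-08, rank 7). The p-values measure the spread between these samples, which may in part be technical.

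**Figure D1:**
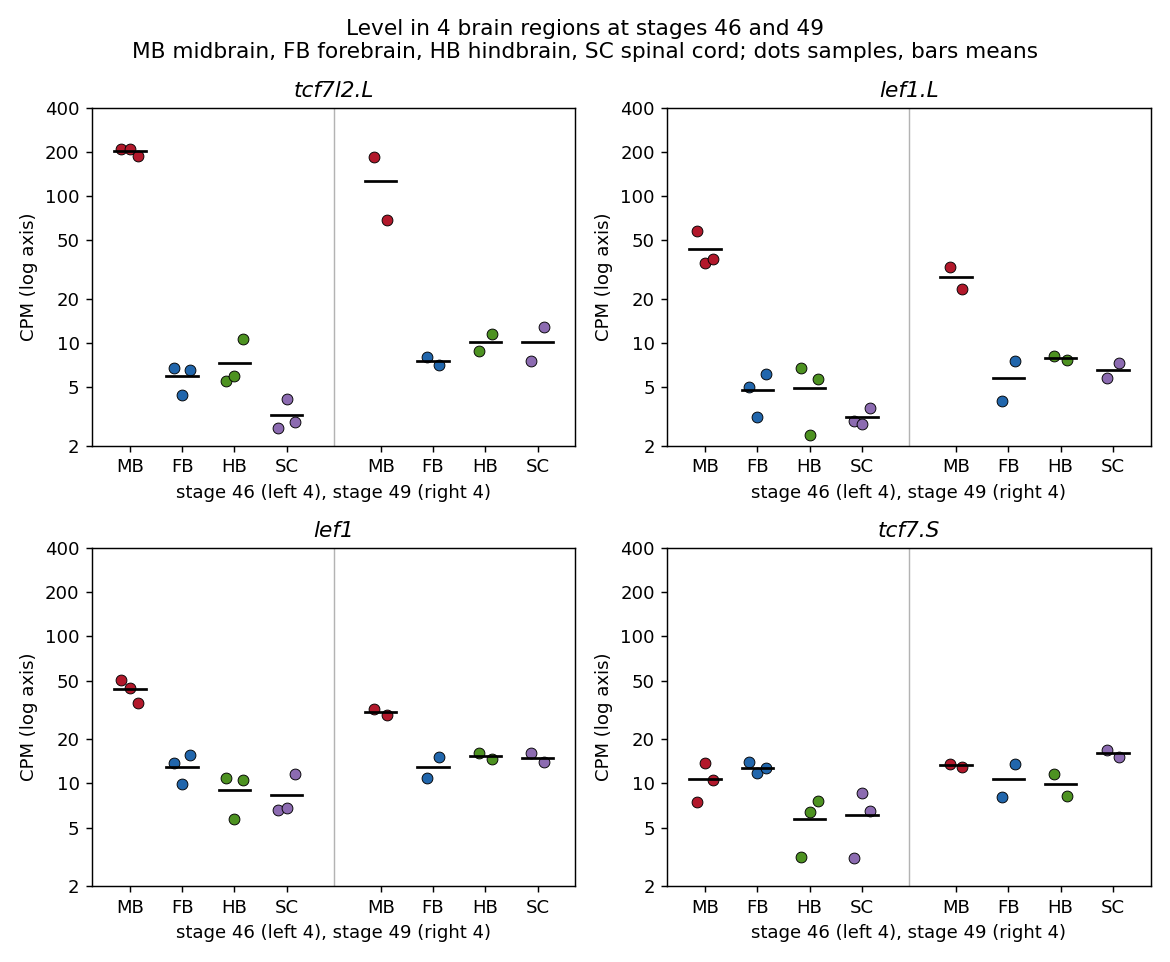
CPM on a log axis of the 4 members (panels) in midbrain (MB), forebrain (FB), hindbrain (HB) and spinal cord (SC) at stages 46 and 49, where each dot is a sample and each bar a group mean. The midbrain samples of tcf7l2.L, 187 to 211 CPM at stage 46, stand above all other regions, those of lef1.L and lef1 stand above by less, and those of tcf7.S overlap the forebrain samples.

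*lef1.L* was higher in midbrain too, with a smaller fold. It stood at 57.7, 35.0 and 37.3 CPM in midbrain, against 5.02, 3.16 and 6.13 CPM in forebrain, 6.72, 2.35 and 5.67 CPM in hindbrain and 2.97, 2.82 and 3.59 CPM in spinal cord. The midbrain samples did not overlap those of any other region. Midbrain was 8.48-fold above forebrain (log2 3.08 ± 0.40, adjusted p = 0.000189, edgeR), 8.36-fold above hindbrain (3.06 ± 0.40, adjusted p = 0.000341) and 13.2-fold above spinal cord (3.73 ± 0.42, adjusted p = 9.78e-06).

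The row *lef1* stood at 50.6, 45.0 and 35.4 CPM in midbrain, against 13.7, 9.85 and 15.6 CPM in forebrain, 10.96, 5.69 and 10.6 CPM in hindbrain and 6.56, 6.82 and 11.7 CPM in spinal cord. Again no midbrain sample overlapped another region. Midbrain was 3.1-fold above forebrain (log2 1.63 ± 0.34, adjusted p = 0.0111, edgeR), 4.52-fold above hindbrain (2.18 ± 0.34, adjusted p = 0.00192) and 4.98-fold above spinal cord (2.31 ± 0.35, adjusted p = 0.000208). The forebrain call did not hold in 3 of the 12 fits that left out a sample, since leaving out forebrain replicate 2 gave an adjusted p of 0.0815, and leaving out midbrain replicate 1 or 2 gave 0.0729 or 0.0518. It was also lost when counts were thinned to the smallest library (adjusted p = 0.0935).

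*tcf7.S* did not separate the midbrain from the other regions. It stood at 7.52, 13.9 and 10.53 CPM in midbrain, against 14.03, 11.8 and 12.7 CPM in forebrain, 3.18, 6.43 and 7.56 CPM in hindbrain and 3.12, 8.59 and 6.51 CPM in spinal cord. Midbrain samples overlapped those of each other region, and no test passed (log2 fold change -0.37 over forebrain, 0.79 over hindbrain and 0.74 over spinal cord, adjusted p = 0.662, 0.406 and 0.267, edgeR). The 95% interval of the forebrain difference reached down to -1.18 on the log2 scale.

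Thus 3 of 4 members passed as higher in midbrain over forebrain, where 2.5% of all tested genes were called, over hindbrain, where 1.63% were called, and over spinal cord, where 11.7% were called. No member passed in forebrain over hindbrain (3.55% of genes called), forebrain over spinal cord (10.4%) or hindbrain over spinal cord (4.7%) by edgeR. At an unadjusted p under 0.05 there were 1, 2 and 1, and DESeq2 called 0, 0 and 1. In these 3 regions the replicate 3 libraries deviated together from the others. With a replicate block *tcf7.S* passed in forebrain over hindbrain (1.28, adjusted p = 0.04995, edgeR) and over spinal cord (1.23, adjusted p = 0.0283), and *tcf7l2.L* in hindbrain over spinal cord (1.14, adjusted p = 0.0218). Without the block, the nearest was *tcf7l2.L* in hindbrain over spinal cord, with a log2 fold change of 1.19 ± 0.35 and adjusted p = 0.0605 (edgeR). Over the whole table, 65 genes passed as higher in midbrain than in each of the other 3 regions, and these 3 members were among them. Ordered by the smallest of its 3 log2 fold changes, *tcf7l2.L* came 8 in that list at 4.70, *lef1.L* 17 at 3.06 and *lef1* 35 at 1.63. Without the 3 stage 46 libraries that stood apart, the same 3 members passed in each comparison, and *tcf7l2.L* had log2 fold changes of 5.18 over forebrain, 5.12 over hindbrain and 5.89 over spinal cord. With all stage 46 samples, the median of all tested genes was -0.183 over forebrain, -0.163 over hindbrain and -0.257 over spinal cord.

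At stage 49, *tcf7l2.L* was again highest in midbrain, and its 2 midbrain samples differed widely. They held 185 and 68.5 CPM, against 8.05 and 7.11 CPM in forebrain, 8.77 and 11.6 CPM in hindbrain and 7.57 and 12.9 CPM in spinal cord. The lower of the midbrain samples, replicate 2, was one of the libraries that stood apart, and it was still above every sample of the other regions. The test passed over forebrain, 15.8-fold (log2 3.98 ± 0.52, adjusted p = 0.0233, edgeR), and over spinal cord, 10.9-fold (3.44 ± 0.50, adjusted p = 0.0312). It did not pass over hindbrain, where the difference was 11.6-fold (3.54 ± 0.51, adjusted p = 0.0583). Both calls rested on the set of libraries. The forebrain call was lost without either forebrain sample (adjusted p = 0.629 and 0.64) or either hindbrain sample (0.0855 and 0.0724), and the spinal cord call was lost without any 1 of the forebrain, hindbrain or spinal cord samples (0.081 to 0.196), which is 6 of the 8 fits that left out a sample. The log2 fold changes in all 8 fits that left out a sample lay between 3.12 and 4.54 for forebrain and between 2.57 and 3.996 for spinal cord.

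The 2 *lef1* rows were again highest in midbrain at stage 49, without passing the test, while the order of the other regions was not kept. *lef1.L* stood at 33.1 and 23.4 CPM in midbrain, against 4.03 and 7.57 CPM in forebrain, 8.12 and 7.64 CPM in hindbrain and 5.76 and 7.29 CPM in spinal cord. *lef1* stood at 32.3 and 29.4 CPM in midbrain, against 10.9 and 15.1 CPM in forebrain, 16.2 and 14.7 CPM in hindbrain and 16.1 and 13.95 CPM in spinal cord. Both rows had their midbrain samples above all others, and the log2 fold changes were 2.19, 1.75 and 1.94 for *lef1.L* (adjusted p = 0.088, 0.309 and 0.0651, edgeR) and 1.17, 0.91 and 0.88 for *lef1* (0.326, 0.534 and 0.18) over forebrain, hindbrain and spinal cord. Without midbrain replicate 2, these log2 fold changes were 2.41, 1.98 and 2.17 for *lef1.L* and 1.23, 0.98 and 0.96 for *lef1*. That fit left 1 midbrain sample, the only stage 49 library that did not stand apart. Region and library group cannot be told apart in it. *tcf7.S* stood at 13.6 and 12.99 CPM in midbrain, against 8.05 and 13.5 CPM in forebrain, 11.7 and 8.21 CPM in hindbrain and 16.96 and 15.2 CPM in spinal cord, and passed in none.

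In counts, 1 of 4 members passed at stage 49 in midbrain over forebrain (0.154% of 35609 genes called), none over hindbrain (0.0505%) and 1 over spinal cord (0.5%). None passed in forebrain over hindbrain (0.126%), forebrain over spinal cord (0.505%) or hindbrain over spinal cord (0.0112%), also at an unadjusted p under 0.05 or by DESeq2. Over hindbrain, 3 had an unadjusted p under 0.05 by edgeR, and DESeq2 gave no adjusted p for any of the 4 members. The levels of *tcf7l2.L* and *lef1.L* outside the midbrain were 4.03 to 12.9 CPM at stage 49. In the same libraries, rows with almost no midbrain counts had a 95th percentile of 3.22 to 4.85 CPM. What part of these levels comes from that background was not tested.

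**Figure D2:**
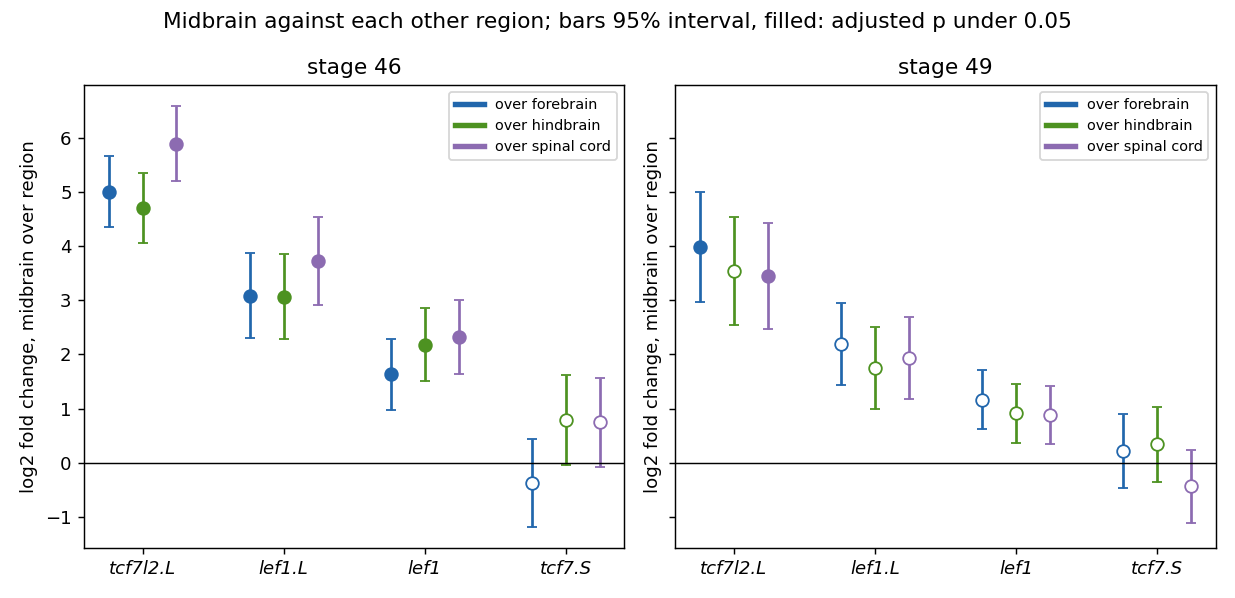
Log2 fold change of midbrain over forebrain, hindbrain and spinal cord for the 4 members at stage 46 (left) and stage 49 (right), with 95% intervals, where filled symbols passed at an adjusted p under 0.05. At stage 46 all 9 symbols of tcf7l2.L, lef1.L and lef1 are filled, and at stage 49 those of tcf7l2.L over forebrain (3.98) and spinal cord (3.44).

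The midbrain excess, midbrain minus the mean of the other 3 regions on the log2 scale, was compared between the stages, and the difference passed for no member. Stage 49 minus stage 46 was -1.31 ± 0.49 for *tcf7l2.L*, -1.13 ± 0.48 for *lef1.L*, -0.86 ± 0.40 for *lef1* and -0.13 ± 0.51 for *tcf7.S* (adjusted p = 0.509 for the first 3 and 0.932 for *tcf7.S*, edgeR). The unadjusted p was under 0.05 for 3, and DESeq2 called 1, *tcf7l2.L* (-1.74, adjusted p = 0.0135). On leaving out each sample none passed, and the value for *tcf7l2.L* lay between -2.31, without midbrain stage 49 replicate 1, and -0.76, without replicate 2 of that group. In that comparison 0.0258% of 42559 genes were called and the median of all genes was 0.651, opposite in sign to the members. All stage 49 libraries but midbrain replicate 1 stood apart, while at stage 46 only replicate 3 of the other 3 regions did. Stage and library group therefore cannot be fully told apart in this difference, for the members or for all genes.

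Over midbrain development, *tcf7l2.L* stayed high while the other 3 members were lower by stage 61. *tcf7l2.L* stood at 291.5, 228 and 205 CPM at stage 44, at 211, 209.9 and 187 at stage 46, at 185 and 68.5 at stage 49, at 138, 132 and 245 at stage 55, at 198, 256 and 314 at stage 61 and at 172.5 in the stage 66 sample. Its stage means ran from 127 CPM at stage 49 to 256 CPM at stage 61, and samples of neighbouring stages up to stage 61 overlapped except between stages 46 and 49. None of the tested pairs of stages passed, and stage 49 was tested against stages 46 and 55 only. Stage 61 over stage 44 gave a log2 fold change of 0.12 ± 0.21 (95% interval from -0.29, adjusted p = 0.696, edgeR), and stage 61 over stage 55 gave 0.59 ± 0.21 (adjusted p = 0.0579). The second of these turned on the method and on single samples. With all samples it passed by DESeq2 (0.60, adjusted p = 0.0298). By edgeR it passed with no filter (0.57, adjusted p = 0.00207) and with thinned counts (0.61, adjusted p = 0.04998). It was 0.93 with adjusted p = 0.00063 (edgeR) without stage 55 replicate 3, the highest sample of its stage. Without that sample, stage 55 was also called lower than stage 44 (-0.83, adjusted p = 0.00297) and than stage 46 (-0.59, adjusted p = 0.028). Without midbrain stage 49 replicate 1, stage 49 over stage 46 gave -1.41 and stage 55 over stage 49 gave 1.16. Stage 49 was then 1 library, replicate 2, the only midbrain library in the group that stood apart. Stage and library group cannot be told apart in those values.

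*lef1* moved with little spread between samples. It stood at 54.7, 53.1 and 46.4 CPM at stage 44, at 50.6, 45.0 and 35.4 at stage 46, at 32.3 and 29.4 at stage 49, at 38.8, 36.0 and 38.5 at stage 55, at 29.2, 25.5 and 26.6 at stage 61 and at 15.6 in the stage 66 sample. Every stage 61 sample lay below every sample of stages 44, 46 and 55. The log2 fold change of stage 61 over stage 44 was -0.89 ± 0.17 (adjusted p = 0.000354, edgeR), and over stage 46 it was -0.66 ± 0.17 (adjusted p = 0.0041, but 0.0623 with all 30 samples in 1 fit), while stage 61 over stage 55 gave -0.46 ± 0.17 and did not pass (adjusted p = 0.0626).

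*lef1.L* stood at 55.0, 55.8 and 32.8 CPM at stage 44, at 57.7, 35.0 and 37.3 at stage 46, at 33.1 and 23.4 at stage 49, at 33.9, 22.1 and 32.2 at stage 55, at 29.7, 15.4 and 24.6 at stage 61 and at 20.3 in the stage 66 sample. Stage 61 did not overlap stages 44 or 46 and did overlap stage 55. It was lower than stage 44 by -0.999 ± 0.26 (adjusted p = 0.00506, edgeR) and than stage 46 by -0.87 ± 0.26 (adjusted p = 0.0122), the second of which was lost without stage 46 replicate 1 (adjusted p = 0.0849) or stage 61 replicate 2 (0.0573), and with all 30 samples in 1 fit (0.0555).

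*tcf7.S* was also lower at stage 61. It stood at 10.03, 15 and 8.74 CPM at stage 44, at 7.52, 13.9 and 10.53 at stage 46, at 13.6 and 12.99 at stage 49, at 6.80, 11.7 and 8.17 at stage 55, at 5.15, 2.65 and 5.37 at stage 61 and at 4.31 in the stage 66 sample. Its stage 61 samples lay below those of all earlier stages. Stage 61 was lower than stage 44 by -1.32 ± 0.36 (adjusted p = 0.00652, edgeR) and than stage 46 by -1.25 ± 0.36 (adjusted p = 0.0089), and against stage 55 the value was -0.99 ± 0.36 (adjusted p = 0.0583). Without replicate 2 of stage 44 or of stage 46 the matching call was lost (adjusted p = 0.0537 and 0.0551).

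**Figure D3:**
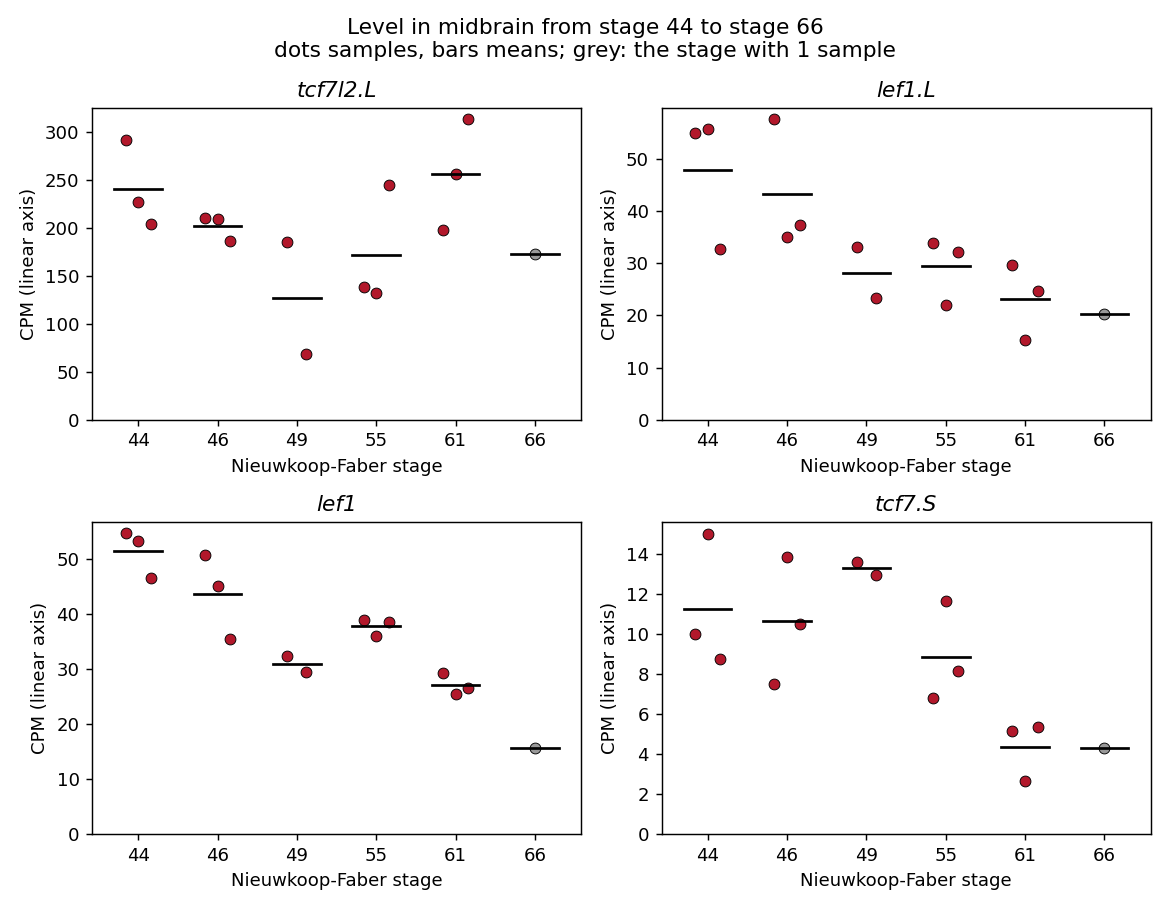
CPM on a linear axis of the 4 members (panels) in midbrain from stage 44 to stage 66, where each dot is a sample and each bar a stage mean, with the lone stage 66 sample in grey. tcf7l2.L stays between 68.5 and 314 CPM with no fall by stage 61, while lef1, lef1.L and tcf7.S are lower at stage 61 than at stages 44 and 46.

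In counts, 3 of 4 members passed, all lower, in stage 61 over stage 44, where 36.3% of 26681 genes were called, and in stage 61 over stage 46 (37.9%). The changes were under the study's own fold limit, a log2 fold change over 2. No member passed in stage 46 over 44 (0.00375% of genes called), 55 over 44 (16.7%), 55 over 46 (16.6%) or 61 over 55 (19.2%), nor, in the fit that added stage 49, in 49 over 46 (17.7%) or 55 over 49 (4.98%) by edgeR. Of these, an unadjusted p under 0.05 was reached by 3 members in 55 over 44, 1 in 55 over 46, 3 in 61 over 55 and none in the others. DESeq2 called 2 in 61 over 55, *tcf7l2.L* as higher and *tcf7.S* as lower, and none in the others. Marker lists of cell types also differed between these stages. Summed progenitor and cell cycle markers (21 rows) spanned 8684 to 11340 CPM at stage 44, 9849 to 11030 CPM in stage 46 midbrain, 7736 to 9893 CPM in stage 55 midbrain and 1132 to 1714 CPM by stage 61, and 20 of the 21 passed as lower in stage 61 over stage 44. Summed oligodendrocyte markers (17 rows) spanned 184 to 202 CPM at stage 44, 180 to 236 CPM in stage 46 midbrain, 776 to 1270 CPM in stage 55 midbrain and 2515 to 3712 CPM by stage 61, and 12 of 17 passed as higher and 3 as lower in that comparison. Their part in the members' levels was not tested.

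T cell and vessel markers were also set beside the members, since both tissues use this family. The defining T cell genes had few reads in stage 46 midbrain, where *cd4.S* was at 0 in all 3 samples, *cd3e.L* averaged 0.0739 CPM, *cd3g.S* 0.161 CPM and *lck.L* 0.111 CPM. Nearly all of the list's signal was *bcl11b*, a gene that neurons also use, with *bcl11b.L* at 314.8 and *bcl11b.S* at 180.8 CPM on average in stage 46 midbrain, against 0 to 0.323 CPM for the other 12 rows. The whole list (14 rows) summed to 472 to 526 CPM there, against 836 to 1766 CPM in forebrain, 214 to 341 CPM in hindbrain and 66.2 to 85.5 CPM in spinal cord. Of its 13 tested rows, the 2 *bcl11b* rows passed as lower in midbrain over forebrain, none passed over hindbrain by edgeR (4 at an unadjusted p under 0.05, and 2 by DESeq2), and the 2 *bcl11b* rows passed as higher over spinal cord. Endothelial markers (23 rows) summed to 367 to 415 CPM in stage 46 midbrain, against 249 to 375 CPM in forebrain, 276 to 378 CPM in hindbrain and 223 to 293 CPM in spinal cord. None of the 22 tested endothelial rows passed by edgeR in midbrain over forebrain or over hindbrain (2 and 0 at an unadjusted p under 0.05, and 0 and 0 by DESeq2), and 3 passed as higher over spinal cord. Among all tested genes, 2.5% were called over forebrain, 1.63% over hindbrain and 11.7% over spinal cord. The part of T cells and vessels in the members' differences was not tested.

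The targets of the pathway were higher in midbrain in part. Of 20 rows for direct or feedback targets, 4 passed as higher and none as lower over forebrain, 3 and none over hindbrain, and 7 and 1 over spinal cord at stage 46. The shares of all genes called were 2.5%, 1.63% and 11.7%. Median log2 fold changes of the target rows were 0.386, 0.292 and 0.211, beside the medians of all genes given above. *sp5.L*, a zinc-finger repressor that Wnt signalling turns on, averaged 44.1 ± 5.2 CPM in midbrain, against 7.56 ± 0.71 CPM in forebrain, 6.90 ± 2.6 CPM in hindbrain and 2.30 ± 1.6 CPM in spinal cord (SD, n = 3 each). Its log2 fold changes were 2.44, 2.58 and 4.23 (adjusted p = 0.000909, 0.000882 and 3.03e-06, edgeR). Its other copy *sp5.S* was higher by 2.73, 3.56 and 4.25. *axin2.S*, a feedback inhibitor widely used as a readout of the pathway, averaged 53.6 ± 13.2 CPM in midbrain, against 22.5 ± 9.8 CPM in forebrain, 19.7 ± 4.6 CPM in hindbrain and 17.4 ± 3.3 CPM in spinal cord (SD, n = 3 each), and passed in all 3 comparisons with log2 fold changes of 1.17, 1.36 and 1.56. *nkd1.L*, an inhibitor acting on Dishevelled, was higher over forebrain by 1.13, and *tnfrsf19.L* was higher over spinal cord by 1.77 (adjusted p = 0.0115 and 0.000147). No target passed by edgeR in midbrain over forebrain, hindbrain or spinal cord at stage 49, where 5, 5 and 7 had an unadjusted p under 0.05. DESeq2, which left some or all of these rows without an adjusted p, called 0, 0 and 2.

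Of 15 rows for Wnt ligands, 2 passed as higher over forebrain, none over hindbrain (2 at an unadjusted p under 0.05 by edgeR and 2 by DESeq2) and 1 over spinal cord at stage 46. In the same comparisons 2.5%, 1.63% and 11.7% of all genes were called. The median log2 fold changes of the ligand rows were -0.504, -0.08 and -0.424, against -0.183, -0.163 and -0.257 over all genes. *wnt3.L* averaged 16.3 ± 1.1 CPM in midbrain, against 0.869 ± 1.3 CPM in forebrain, 10.8 ± 1.3 CPM in hindbrain and 1.83 ± 1.1 CPM in spinal cord (SD, n = 3 each). It was higher over forebrain by a log2 fold change of 4.22 (adjusted p = 0.0128, edgeR) and over spinal cord by 3.09 (adjusted p = 0.0154). *wnt7a.S* was higher over forebrain by 1.97 (adjusted p = 0.00994).

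Proteins that bind TCF/LEF or beta-catenin in the nucleus and the cytoplasmic proteins of the pathway were read against the shares of all genes called, 2.5% over forebrain, 1.63% over hindbrain and 11.7% over spinal cord. Of 29 rows for nuclear partners, none passed over forebrain (6 at an unadjusted p under 0.05 by edgeR and 3 by DESeq2), 1 over hindbrain and 3 over spinal cord, all higher in midbrain, with median log2 fold changes of 0.27, 0.393 and 0.361. The row that passed over hindbrain was *tcf7l1.S*, a family member that acts mainly as a repressor, at 33.5 ± 5.8 CPM in midbrain and 9.35 ± 3.2 CPM in hindbrain (SD, n = 3 each, log2 fold change 1.75, adjusted p = 0.0141, edgeR). Over spinal cord both rows of beta-catenin passed, *ctnnb1.L* by 1.68 and *ctnnb1.S* by 1.29 (adjusted p = 0.00553 and 0.0111), and so did the co-repressor *ctbp2.S* by 0.78 (adjusted p = 0.0242). Of 17 rows for the cytoplasmic proteins that carry or break the signal, 1, 1 and 2 passed as higher, with medians of 0.2, 0.312 and 0.222. They were *axin1.L*, the scaffold of the destruction complex, over forebrain (1.71, adjusted p = 0.046) and spinal cord (1.76, adjusted p = 0.013), and *amer2.L*, a membrane protein that binds APC, over hindbrain (0.96, adjusted p = 0.0473) and spinal cord (0.73, adjusted p = 0.0494).

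Transcription factors of thalamus, pretectum and midbrain neurons, a list not limited to neurons known for *tcf7l2*, were compared between the same regions at stage 46. Of 31 rows, 22 passed as higher over forebrain, 9 over hindbrain and 21 over spinal cord, and none as lower, where 2.5%, 1.63% and 11.7% of all genes were called. Median log2 fold changes were 3.89, 1.40 and 2.16 beside all-gene medians of -0.183, -0.163 and -0.257. Over forebrain the smallest p-values belonged to *sox14.L* (5.86), *pou4f1.L* (4.74) and *sox14.S* (6.27). Over hindbrain they belonged to *six3.L* (4.89), *barhl2.S* (2.38) and *pou4f1.L* (2.23), and over spinal cord to *barhl2.S* (5.36), *lhx2.S* (5.56) and *barhl2.L* (6.75). All these are log2 fold changes with an adjusted p under 0.05 (edgeR).

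**Figure D4:**
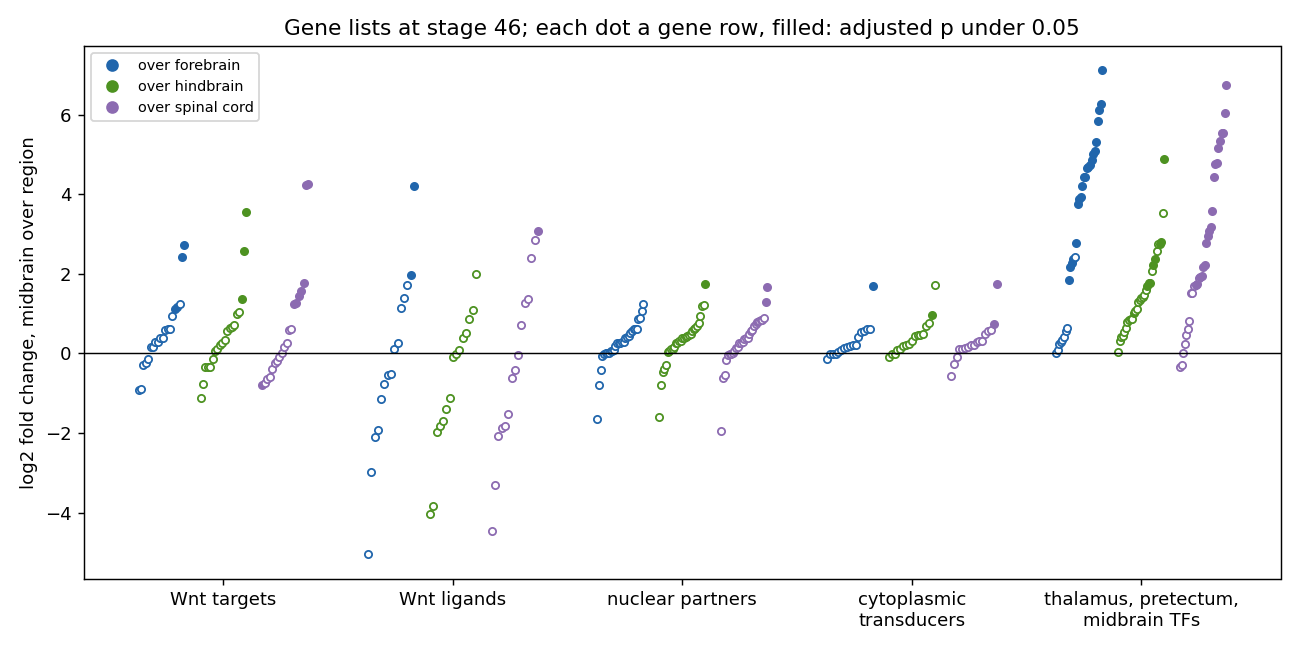
Log2 fold change of midbrain over each other region at stage 46 for the rows of 5 gene lists, where each dot is a row, sorted by value within its comparison, and filled dots passed at an adjusted p under 0.05. Filled as higher are 4, 3 and 7 of the 20 target rows and 22, 9 and 21 of the 31 thalamus, pretectum and midbrain rows. These are over forebrain, hindbrain and spinal cord, where 2.5%, 1.63% and 11.7% of all genes were called.

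The same lists were compared between stage 61 and stage 44, where 36.3% of all genes were called. Of the 20 target rows, 10 passed as lower and none as higher in stage 61 over stage 44. *ccnd1.L*, the G1 cyclin D1, averaged 2.48 ± 0.46 CPM at stage 61, against 31.8 ± 4.6 CPM at stage 44 (SD, n = 3 each, log2 fold change -3.62, adjusted p = 5.36e-10, edgeR), and *notum.L*, a secreted enzyme that inactivates Wnt proteins, 3.55 ± 0.067 CPM against 26.3 ± 5.5 CPM (-2.84, adjusted p = 2.84e-08). *notum.S* had no counts in any stage 61 sample and averaged 5.46 CPM at stage 44. *axin2.S*, picked out after its values were seen, averaged 49.0 ± 3.5 CPM at stage 61, against 48.9 ± 1.5 CPM at stage 44, and its log2 fold change was 0.04 ± 0.17 (adjusted p = 0.886). Of 28 nuclear partner rows tested, 10 passed as lower and 3 as higher. The lower ones with the smallest p-values were *tle1.L*, a Groucho co-repressor (-1.60), *ctbp2.S* (-1.98) and *tcf7l1.L* (-1.65). Of 12 ligand rows tested, 6 passed as lower, among them *wnt1.L* (-3.71), *wnt8b.S* (-1.36) and *wnt3.L* (-1.0). Of 17 cytoplasmic rows, 5 passed as lower, among them *amer1.S*, which had no counts in any stage 61 sample and averaged 14.2 CPM at stage 44, and 1 as higher. Of the 31 thalamus, pretectum and midbrain rows, 18 passed as lower and 2 as higher, with *lmx1a.S* (-4.51), *nr4a2.S* (-1.85) and *lmx1a.L* (-3.74) lowest by p-value. The median over all genes in this comparison was 0.003, and over the target, partner, ligand, cytoplasmic and thalamus lists -0.581, -0.356, -0.747, -0.293 and -0.590.

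The gene whose levels followed *tcf7l2.L* most closely over the 12 conditions was *LOC108697306*, with a Pearson correlation of 0.996 between condition means of log2 CPM among 45417 genes. All correlations of this kind are descriptions over 12 conditions that share libraries and the strong contrast of midbrain with the rest. *LOC108697306* stood at 197, 186 and 178 CPM in stage 46 midbrain, against 5.02, 2.27 and 4.48 CPM in forebrain, 3.89, 4.21 and 8.03 CPM in hindbrain and 4.06, 2.37 and 5.39 CPM in spinal cord. In RefSeq (assembly Xenopus_laevis_v10.1), which gives this gene no symbol, its named neighbours are *mxi1.S* and *zdhhc6.S*. *tcf7l2.L* lies between *habp2.L* and *vti1a.L*, with *zdhhc6.L* next after *vti1a.L*. Its log2 fold changes at stage 46 were 5.50 over forebrain, 5.05 over hindbrain and 5.52 over spinal cord (adjusted p = 5.04e-07, 3.95e-06 and 1.1e-07, edgeR), and at stage 49 they were 3.91, 3.46 and 2.90 (adjusted p = 0.0154, 0.0411 and 0.0316). How reads that match near-identical rows were counted was not given in the sources used here, so the split between rows of alike sequence is uncertain.

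The share that *tcf7l2.L* took of the counts of these 2 rows was 52.0 ± 0.94% in stage 46 midbrain (SD, n = 3) and 55.0 ± 10.52% in the 9 other stage 46 samples. An exact two-sided permutation test over samples did not pass (p = 0.668). For the 2 *lef1* rows it was otherwise. *lef1.L* took 53.3, 43.8 and 51.3% of the counts of *lef1.L* and *lef1* in stage 46 midbrain, against 23.5 to 38.0% in the other 9 samples, from 61 to 108 counts each. The means were 49.5 ± 5.0% (SD, n = 3) and 29.5 ± 4.7% (SD, n = 9), a difference of 19.98 percentage points (exact two-sided permutation p = 0.00455, the smallest the design allows, adjusted p = 0.0364 over 8 such tests). Without the 3 libraries that stood apart it was 19.7 points (exact p = 0.0119, adjusted p = 0.0476). At stage 49 the shares were 50.6 and 44.3% in midbrain, against 26.4 to 34.3% in the other 6 samples (exact permutation p = 0.0357, adjusted p = 0.0952). Within midbrain the share was 45.4 ± 6.8% at stage 61 (SD, n = 3), against 48.5 ± 4.8% at stages 44 and 46 (SD, n = 6, exact permutation p = 0.452). The measure was chosen after the values had been seen. Each permutation test took its samples as exchangeable, without regard to region or replicate number, so its p-value may overstate the replication.

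**Figure D5:**
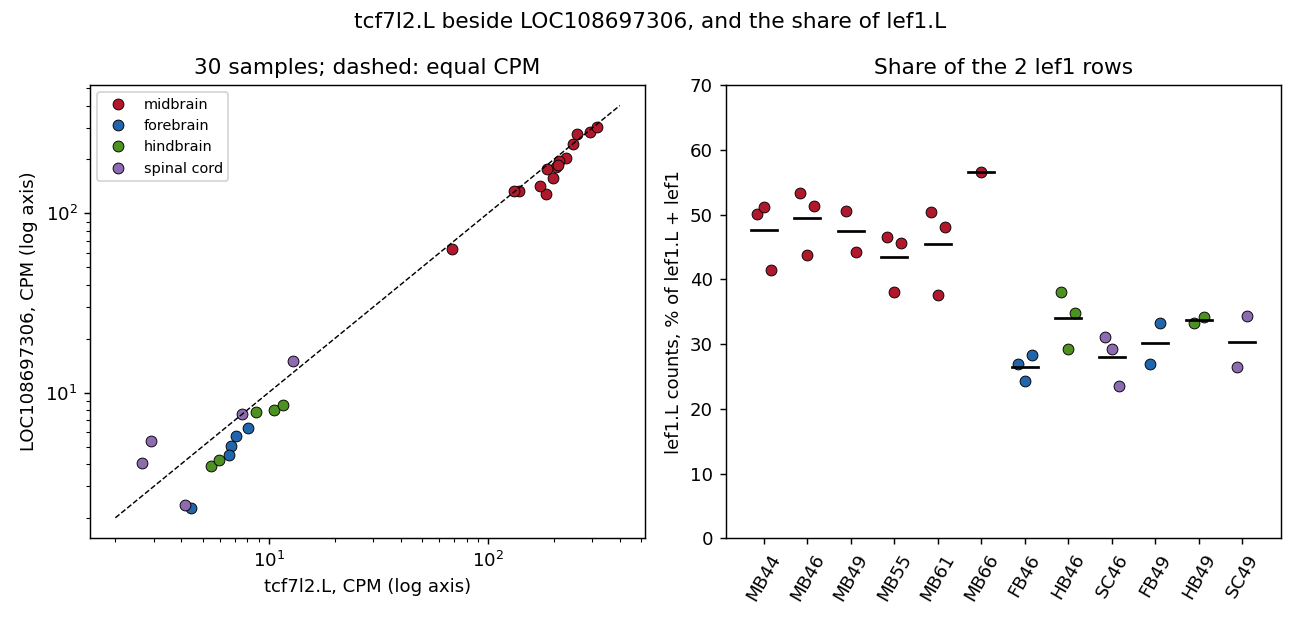
Left, CPM of LOC108697306 against CPM of tcf7l2.L in the 30 samples, both on log axes, where the dashed line marks equal CPM and colours mark regions. Right, the percent of the counts of lef1.L and lef1 that fell on lef1.L, where dots are samples and bars group means, at 43.8 to 53.3% in stage 46 midbrain and 23.5 to 38.0% in the other stage 46 regions.

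Among themselves, *tcf7l2.L* and *lef1.L* correlated at 0.969 over the 12 conditions, *lef1.L* and *lef1* at 0.95 and *tcf7l2.L* and *lef1* at 0.873, while *tcf7.S* had correlations of -0.162 to 0.259 with the other 3. After *LOC108697306*, the genes most like *tcf7l2.L* were *Xetrov90025917m.S* (0.975), *pmch.S* (0.974), *Xelaev18047267m* (0.972) and *efna2.L* (0.969). *pmch.S* encodes melanin-concentrating hormone, a hypothalamic peptide, and averaged 73.1 ± 16.3 CPM in stage 46 midbrain, against 1.47 ± 1.6 CPM in forebrain, 0.837 ± 0.89 CPM in hindbrain and 0.249 ± 0.23 CPM in spinal cord (SD, n = 3 each). *efna2.L*, an ephrin ligand of the retinotectal map, averaged 94.4 ± 5.1 CPM, against 12.1 ± 3.1, 21.6 ± 7.3 and 9.56 ± 1.8 CPM.

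The genes most like *lef1.L* were *Xetrov90025917m.S* (0.989), *nkx2-4.S* (0.983), *nkx2-4.L* (0.98), *Xelaev18047267m* (0.973) and *npvf.S* (0.973). Nkx2-4 is a homeodomain protein of the hypothalamus, and *npvf* encodes RFamide peptides of hypothalamic neurons. *nkx2-4.S* averaged 29.7 ± 1.3 CPM in stage 46 midbrain, against 1.48 ± 1.4 CPM in forebrain (SD, n = 3 each), and 9.92 ± 0.74 CPM in stage 61 midbrain, against 28.5 ± 3.1 CPM in stage 44 midbrain. The genes most like *lef1* were *Xetrov90005247m.L* (0.962), *nkx2-4.L* (0.954), *lef1.L* (0.95), *sp5.S* (0.941) and *kcnmb3.S* (0.941). Those most like *tcf7.S* reached lower values, with *ddx56.S* at 0.921, *LOC108704601* at 0.916, *LOC108699295* at 0.91, *ppat.S* at 0.906 and *LOC108707848* at 0.905.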

How the data were processed

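RNA of dissected brain regions was amplified, and libraries were sequenced on a HiSeq2000 with single-end reads. Per the methods and labels the authors aligned reads with STAR 2.5.2a to the *X. laevis* v9.2 genome and counted them per gene with HTSeq 0.11.1. The deposited raw counts (49109 rows, 30 samples) were used as they stand. The authors' 2 tables of normalized values were not used. Treatment of strand and of reads matching several rows was not given in the sources used here. Sequences of the members were not used here.

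Genes were filtered (edgeR filterByExpr, minimum count 10, minimum total 15), scaled by TMM and tested by the edgeR 4.0.16 quasi-likelihood test in R 4.3.3, with Benjamini-Hochberg adjustment over all genes tested and a threshold of 0.05. Fits held the 4 regions at stage 46 (12 samples), at stage 49 (8), the midbrain stages 44, 46, 55 and 61 (12), these with stage 49 (14), and both stages of all regions (20). The stage 66 sample had no replicate and was not tested. SE is the log2 fold change divided by the root of F. Levels are CPM (the cpm function of edgeR) after TMM over all 30 samples. They are not divided by gene length, so levels were not compared between genes. Replicate libraries were distinct (chi-square per gene of 2.27 to 26.2). Same-numbered samples did not deviate together throughout, with correlations of -0.01 to 0.854 between regions at stage 46 and -0.058 to 0.046 between stages, so samples were not paired throughout. At stage 49 the range was -0.527 to 0.35. With 2 samples per group, different-numbered pairs there give the same values with the sign changed, so this range cannot decide on pairing. Between forebrain, hindbrain and spinal cord at stage 46, whose replicate 3 libraries stood apart, all 9 same-numbered pairs correlated at 0.436 to 0.854. Replicates 1 and 2 of these regions also correlated where their numbers differed, at 0.345 to 0.567, so pairing by number was not shown. Same-numbered pairs with midbrain gave -0.01 to 0.026. No main fit held a replicate block, which was an alternative only. The test was checked on simulated data.

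Named genes were the members, up to 3 genes with the smallest adjusted p per list and comparison, and the 5 genes most like each member. The T cell genes and *axin2.S* at stage 61 fall outside this rule and were chosen after their values were seen. The members and lists were chosen with earlier results of these data known. Alternatives were DESeq2 1.42.0, relative log expression scaling, no filter, other sets of samples, thinned counts, a replicate block, a fold limit and leaving out each sample.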

Additional observations from a re-analysis of the deposited data

Results flagged for a closer look

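The stage 66 midbrain sample entered no test, since it had no replicate, and all 4 members were detected in it. *tcf7l2.L* stood at 172.5 CPM, *lef1.L* at 20.29 CPM, *lef1* at 15.62 CPM and *tcf7.S* at 4.308 CPM. *lef1* was below every other midbrain sample there, *tcf7l2.L* was within the range of the earlier stages, *lef1.L* was within the range of the stage 61 samples, and so was *tcf7.S*. No group had between 4 and 10 samples, so no sample was tested for standing apart from its group.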

How the results depend on the processing

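At stage 46, the count of members that passed was 3 over forebrain, hindbrain and spinal cord, and 2 to 3, 3 to 3 and 3 to 3 when each sample was left out. No log2 fold change of a called member reversed its sign under any alternative. At stage 49, over forebrain 1 member passed, against 2 with all 30 samples in 1 fit, DESeq2 or no filter, 0 with the 2 groups compared alone or a replicate block, and 0 to 3 on leaving out each sample. Over hindbrain 0 passed, against 1 with all 30 samples, thinned counts, no filter or relative log expression, and 0 to 3 on leaving out. Over spinal cord 1 passed, against 3 with all 30 samples, 2 with no filter, 0 with the 2 groups alone or the replicate block, and 0 to 3 on leaving out. DESeq2 called 1 member, *tcf7l2.L*, in the midbrain excess (-1.74, adjusted p = 0.0135), and leaving out gave 0 to 0. For hindbrain over spinal cord at stage 46, 1 passed with DESeq2 or the block, and 0 to 1 on leaving out. The other pairs of regions gave 0 to 0 on leaving out. Between stages, 3 members passed in 61 over 44 and in 61 over 46, 2 to 3 on leaving out, and 0 with a further log2 limit of 2. With all 30 samples in 1 fit, 1 passed in 61 over 46. In 61 over 55, 2 passed with DESeq2, *tcf7l2.L* as higher and *tcf7.S* as lower, and 1 with thinned counts or no filter, *tcf7l2.L* as higher. In 55 over 44, 2 passed with no filter, and with no filter 1 passed in 55 over 46 and 1 in 49 over 46. For these and 55 over 49, leaving out gave 0 to 1, and 0 to 0 for 46 over 44. The difference in the share of *lef1.L* at stage 46 was between 18.1 and 22.8 points on leaving out.

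No main fit held a replicate block. With the replicate block, *tcf7.S* was called in forebrain over hindbrain (1.28) and over spinal cord (1.23), 1 member each, *tcf7l2.L* in hindbrain over spinal cord (1.14) and *lef1.L* in 55 over 44 (-0.70), where 1 passed, and *tcf7l2.L* lost its calls at stage 49 over forebrain (3.95, adjusted p = 0.0725) and spinal cord (3.38, adjusted p = 0.081). At stage 46 the block called 1893 genes in midbrain over forebrain, against 862 without it, and DESeq2 2375. At stage 49 DESeq2 gave no adjusted p for the 4 members in midbrain over hindbrain, nor for *lef1.L* and *tcf7.S* over spinal cord, so its counts there are not given. The cause of these changes was not tested.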
